A study of Arabidopsis thaliana with 12 samples.

Results

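Transcripts of 4 genes that encode plastid proteins of thiol redox control were followed in dark-adapted Arabidopsis thaliana plants. The genes were the gene of the catalytic subunit of ferredoxin-thioredoxin reductase (AT2G04700), the phosphoribulokinase gene PRK (AT1G32060), the sedoheptulose-bisphosphatase gene SBPASE (AT3G55800) and the plastid peroxiredoxin gene AT3G52960. They are the 4 of 3439 array features, and of 692 features annotated with exactly 1 gene, whose single gene is one of these loci. Each gene had 1 feature, so a gene's value rests on 1 intensity per array. Total RNA was measured on 12 single-colour arrays. The laf6 plants, which according to the labels are without the transporter atABC1, were represented by 6 arrays. WT plants were represented by the other 6. Both groups are of the ecotype Landsberg and were dark adapted, and the sources used here give neither the plants' age and tissue nor the kind of laf6 allele.

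Ferredoxin-thioredoxin reductase is a plastid iron-sulfur enzyme. It takes electrons from ferredoxin, which photosystem I reduces in the light, and uses them to reduce the disulfide of plastid thioredoxins. The reduced thioredoxins in turn open regulatory disulfides of Calvin cycle enzymes, phosphoribulokinase and sedoheptulose-bisphosphatase among them, which are thereby active in the light and switched off in darkness. Peroxiredoxins reduce peroxides through cysteine thiols and are themselves reduced by thiol donors. The atABC1 protein is now known as SUFB, a part of the plastid machinery that assembles iron-sulfur clusters. The arrays measure transcripts and carry no information on the redox state of these proteins.

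The deposited intensities have no absolute unit and ran from 0 to 100 on every array. The laf6 arrays had lower medians (0.178 to 0.202) than the WT arrays (0.218 to 0.289), and 15.7% of all values were listed at 0. Values were therefore quantile-normalized between arrays, raised to a floor of 0.00597 and converted to log2. The laf6 arrays stood apart from the WT arrays on the first principal component (25.8% of the variance). Replicates 1 and 2 of both groups stood apart from replicates 3 to 6 on the second (12.4%). Whether each array had plants of its own is not said in the labels, so p-values may reflect technical spread alone. In both groups, arrays with adjacent replicate numbers were more alike than other pairs, so the arrays of a group may not be independent. In RNA from a mixture of cells, fewer cells of a type and less RNA per cell cannot be told apart. The lesion gene SUFB had no single-gene feature and was not analysed here. None of the 12 markers of root, pollen or seed fixed for this comparison, and none of the 10 housekeeping genes, had a single-gene feature.

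Of the 4 genes 2, AT2G04700 and PRK, rose in laf6 plants. Transcripts of the reductase subunit were 2.74-fold higher and those of phosphoribulokinase 2.25-fold higher. The peroxiredoxin gene AT3G52960 did not pass the threshold, with a fold of 2.58 and a 95% interval from 0.920 to 7.26. SBPASE had a signal on 2 laf6 arrays and on no WT array, so no fold is given. Of all 3438 rows fitted, 26.2% passed the threshold (limma adjusted p under 0.05), 12.4% with a higher value in laf6 (428 rows) and 13.8% with a lower one (474 rows). With the values as deposited the split was 252 higher and 902 lower. Among rows with a single gene 10.3% were called higher in laf6, and the share was 20.7% in the brighter and 4.19% in the dimmer part of all rows, split at the median. By mean level PRK lay above 87.0% of rows and AT2G04700 above 49.4%, just inside the dimmer part. None of the 4 genes fell. The median log2 difference was 1.27 over the 4 genes, with SBPASE at its fitted value of 0.84, which depends on the floor, and -0.02 over all rows. The 4 genes were chosen with earlier results of these arrays known, so these counts describe them and do not set them apart from other genes.

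AT2G04700, which encodes the iron-sulfur subunit of the reductase, had deposited intensities between 0.153 and 0.336 with a median of 0.299 on laf6 arrays, against 0.0771 to 0.190 with a median of 0.136 on WT arrays. On this scale the groups overlapped: replicate 6 of laf6 (0.153) lay below WT replicates 3 (0.190) and 5 (0.163), while the other 5 laf6 arrays lay above every WT array. After normalization all 6 laf6 arrays lay above all 6 WT arrays, with 0.323 ± 0.0797 in laf6 and 0.119 ± 0.0345 in WT (SD, n = 6 each). Over all rows, 8.52% had groups that did not overlap with laf6 higher and 9.34% with laf6 lower. The log2 difference was 1.45 ± 0.26 (SE, 95% interval 0.89 to 2.02, limma adjusted p = 0.00128). Replicate 6 was the low laf6 array, at 0.170 normalized, and the other 5 lay between 0.300 and 0.379. Without it the log2 difference was 1.64 (limma adjusted p = 0.000282).

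Grouped by adjacent replicate numbers, the difference for AT2G04700 was 2.04 on the log2 scale in replicates 1 and 2, 1.67 in replicates 3 and 4 and 0.65 in replicates 5 and 6. The reductase transcript was higher in laf6 in each of these sets. With replicates 1 and 2 of both groups left out, the difference was 1.14 (limma adjusted p = 0.0358). No alternative in the processing ended the call for this gene. With an offset of 0.1 before log2, which weighs dim signals less, its log2 difference was 0.94.

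PRK encodes the Calvin cycle enzyme that makes the carbon dioxide acceptor ribulose bisphosphate, and it is a classical thioredoxin target. Its deposited intensities ran from 0.760 to 1.92 with a median of 1.04 on laf6 arrays, against 0.499 to 0.896 with a median of 0.627 on WT arrays. Here too 1 laf6 array crossed into the WT range before normalization: replicate 5 of laf6 (0.760) lay below WT replicates 1 (0.859) and 2 (0.896). After normalization the groups did not overlap, with 1.33 ± 0.437 in laf6 and 0.590 ± 0.174 in WT (SD, n = 6 each). The log2 difference was 1.17 ± 0.24 (SE, 95% interval 0.63 to 1.71, limma adjusted p = 0.00391).

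The highest PRK value was that of laf6 replicate 2 (2.18 normalized), and the next highest was 1.27. Without that array the log2 difference was 1.02, still past the threshold (limma adjusted p = 0.00536). By adjacent replicate numbers the difference in PRK was 1.10 in replicates 1 and 2, 1.66 in replicates 3 and 4 and 0.76 in replicates 5 and 6. Within each group, arrays of adjacent numbers were more alike than other pairs. Their deviations from the group mean correlated at -0.033 against -0.24 for other pairs in laf6, and at 0.025 against -0.25 in WT. Whether they are repeats of the same sample was not tested. In case they are, adjacent numbers were averaged to 3 samples per group. PRK then missed the threshold at the same log2 difference of 1.17 (limma adjusted p = 0.0695). With adjacent numbers as a random block (correlation 0.19) PRK passed (limma adjusted p = 0.00664).

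SBPASE encodes the bisphosphatase of the regenerative part of the Calvin cycle, also opened by thioredoxin. Its feature gave a signal on laf6 replicate 3 (0.0545) and laf6 replicate 5 (0.0157) and on no other of the 12 arrays. Of the features on these arrays, 27.1% and 17.6% had lower values, so both signals lay in the dimmer part of their arrays. A value of 0 gives no order among the other 10 arrays. The fit did not call the gene (limma adjusted p = 0.343). Of 147 features listed at 0 on all 6 WT arrays, 23 had a signal on exactly 2 laf6 arrays and 36 on 2 or more.

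AT3G52960, the plastid peroxiredoxin gene, had deposited intensities between 0.0811 and 0.278 with a median of 0.129 on laf6 arrays, against 0.0224 to 0.187 with a median of 0.107 on WT arrays. Normalized intensities averaged 0.171 ± 0.0869 in laf6 and 0.0882 ± 0.0647 in WT (SD, n = 6 each), and the groups overlapped. The log2 difference was 1.37 ± 0.68 (SE, 95% interval -0.12 to 2.86, limma adjusted p = 0.176). This standard error was wider than that of AT2G04700 or PRK and close to the median of the dimmer rows (0.71, against 0.18 for the brighter ones). The WT arrays were uneven: replicates 1, 2 and 6 lay between 0.126 and 0.164 normalized, replicates 3 and 4 at 0.0379 and 0.0470, and replicate 5 at 0.00915. Without WT replicate 5 the log2 difference was 0.84 (limma adjusted p = 0.269), as deposited it was 0.70, and with the offset of 0.1 it was 0.55. It was larger without WT replicate 1 (1.64) or WT replicate 6 (1.68). Median, 75th percentile and cyclic loess scaling gave 1.10 to 1.12, with smaller standard errors of 0.51 to 0.53. None of these alternatives passed the threshold. At the spread of the main fit a difference of the size seen for AT2G04700 was not detectable.

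**Figure D1:**
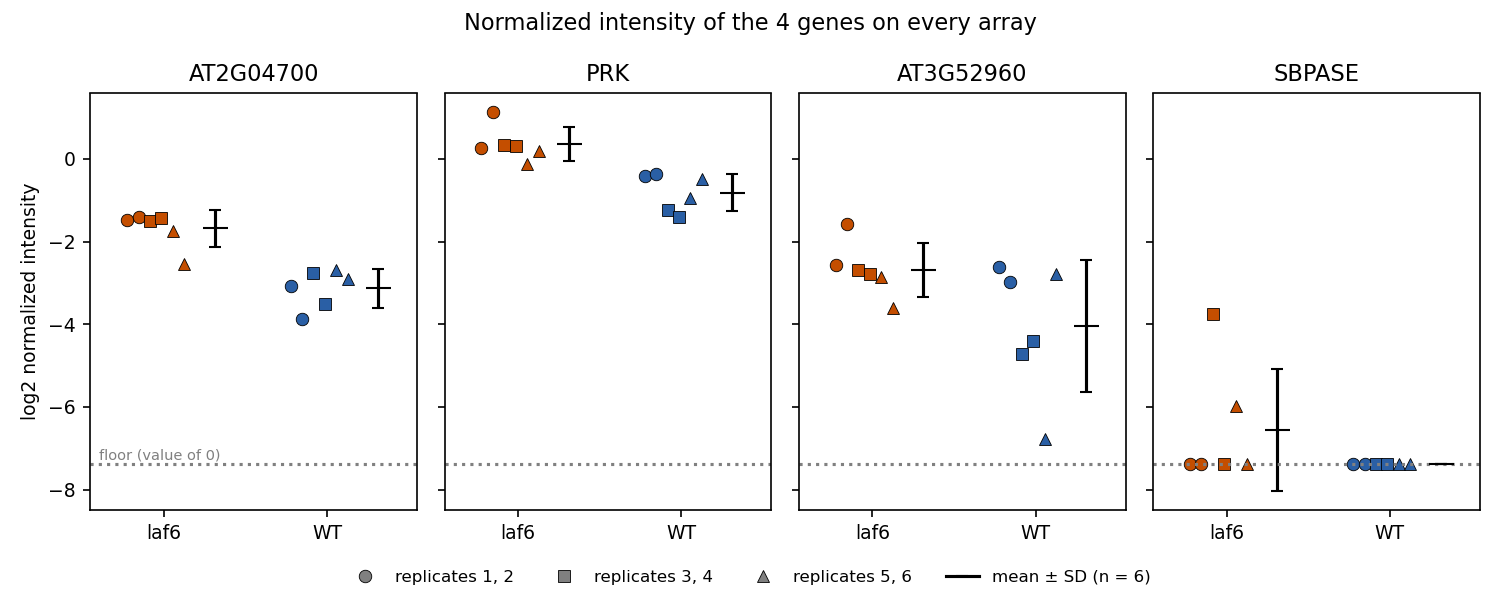
Log2 normalized intensity (vertical axis) of AT2G04700, PRK, AT3G52960 and SBPASE on each of the 6 laf6 and 6 WT arrays; point shapes mark replicate numbers, crosses with bars the mean and SD, and the dotted line the floor given to values of 0. For AT2G04700 and PRK the laf6 arrays lie above all WT arrays, for AT3G52960 the groups overlap, and for SBPASE 10 of 12 arrays lie at the floor; heights are not comparable between genes.

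The rank of a feature on its own array needs no scaling between arrays. Quantile-normalized values follow these ranks, so the ranks restate the order of the arrays given above and are no independent measure of it. AT2G04700 lay between percentiles 43.0 and 66.8 of the features on laf6 arrays (median 64.9) and between percentiles 26.2 and 40.5 on WT arrays (median 35.8). PRK lay between percentiles 87.0 and 94.7 on laf6 arrays (median 90.7) and between percentiles 66.5 and 84.4 on WT arrays (median 79.1). For both genes every laf6 array ranked above every WT array. The mean difference was 26.4 percentile points for AT2G04700 and 13.5 for PRK (two-sided exact permutation test, p = 0.00216 each, the smallest that 6 against 6 arrays can give, adjusted p = 0.00325 over 3 genes). The separation after normalization fixes these p-values, which add no support to it. PRK is nearer the top of the scale, where fewer ranks remain to be gained.

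AT3G52960 ranked between percentiles 28.6 and 63.2 in laf6 (median 39.7) and between percentiles 16.2 and 42.0 in WT (median 29.3). Its difference of 12.4 points missed the threshold (exact permutation p = 0.0693, adjusted p = 0.0693). Leaving out laf6 replicate 6, WT replicate 1 or WT replicate 6 brought the adjusted p of this exact permutation test to between 0.0390 and 0.0476, with differences of 14.3 to 15.1 points. Leaving out any 1 of the other 9 arrays did not.

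**Figure D2:**
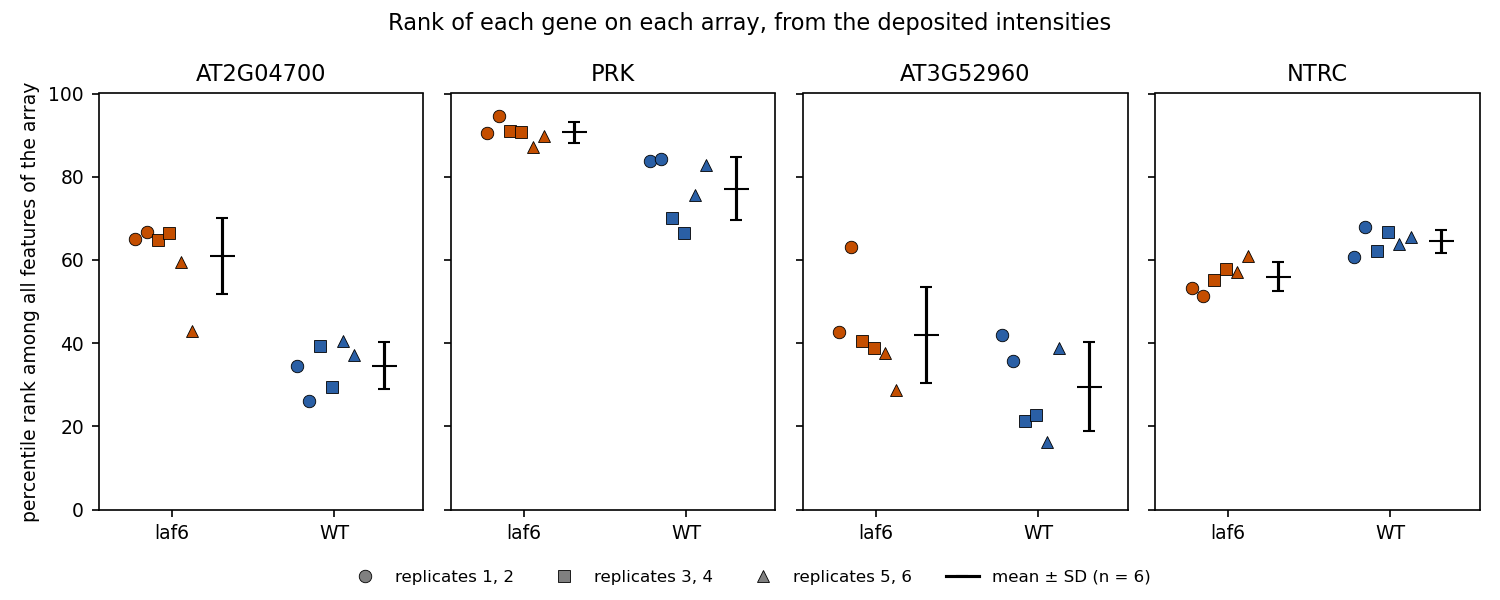
Percentile rank (vertical axis, 0 to 100) of AT2G04700, PRK, AT3G52960 and NTRC among all features of each laf6 and WT array, from the deposited intensities; point shapes mark replicate numbers and crosses with bars the mean and SD. AT2G04700 and PRK rank higher on all 6 laf6 arrays than on any WT array, and 5 of 6 laf6 arrays rank below all WT arrays for NTRC.

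The surrounding pathway was covered thinly. The 6 lists of the reductase system, plastid thioredoxins, thioredoxin-regulated plastid proteins, other Calvin cycle enzymes, plastid iron-sulfur proteins and peroxide detoxification, with the 2 lists of markers and housekeeping genes, hold 117 genes. Of these, 7 had a single-gene feature, and 8 were covered only by features that list several genes, which are not named. Of the 9 genes of the reductase system and of the 18 plastid iron-sulfur genes, AT2G04700 was in each case the only one measured, and it rose. Of 15 peroxide detoxification genes AT3G52960 was the only one measured. None of the 14 other Calvin cycle genes was measured. Of 31 genes placed on the list of thioredoxin-regulated proteins 5 were measured. PRK and CHLM rose, SBPASE, AT3G52960 and AT5G58330 did not pass, and none fell. Over all rows 12.4% were called higher and 13.8% lower. With 5 genes measured, nothing particular to the list is read from this count. The median log2 difference of these 5 was 1.17, which is the value of PRK itself, with SBPASE at a value that depends on the floor. Over all rows the median was -0.02.

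Among 13 plastid thioredoxin genes the only one measured was NTRC, which encodes NADPH-dependent thioredoxin reductase C. This enzyme draws its electrons from NADPH and can act without light, alongside the ferredoxin-dependent route. NTRC fell in laf6. Deposited intensities ran from 0.186 to 0.274 with a median of 0.232 on laf6 arrays and from 0.344 to 0.502 with a median of 0.392 on WT arrays. The groups did not overlap on this scale, where the laf6 arrays had the lower medians and 902 rows were called lower. The share of all rows without overlap as deposited was not computed. After normalization the groups overlapped, and 5 of 6 laf6 arrays lay below all WT arrays, with 0.268 ± 0.0300 in laf6 and 0.353 ± 0.0311 in WT (SD, n = 6 each). The log2 difference was -0.40 ± 0.09 (SE, 95% interval -0.61 to -0.20, limma adjusted p = 0.00761). As deposited the log2 difference was -0.83, over 1.5 times the normalized one. NTRC missed the threshold with the trend and robust variance model (limma adjusted p = 0.0679) and with adjacent replicate numbers averaged (0.0897).

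CHLM encodes magnesium protoporphyrin IX methyltransferase, an enzyme of chlorophyll synthesis. Its deposited intensity ran from 0.371 to 0.611 with a median of 0.472 on laf6 arrays, against 0.150 to 0.399 with a median of 0.272 on WT arrays. On this scale the groups overlapped, and 4 of 6 laf6 arrays lay above every WT array. Its normalized intensity ran from 0.413 to 0.755 with a median of 0.561 on laf6 arrays, against 0.119 to 0.352 with a median of 0.232 on WT arrays, with no overlap, as for 8.52% of all rows in this direction. The log2 difference was 1.28 ± 0.26 (SE, limma adjusted p = 0.00309), and with adjacent replicate numbers averaged CHLM missed the threshold (limma adjusted p = 0.0627). AT5G58330 encodes the NADP-dependent malate dehydrogenase, which exports reducing power from the plastid as malate. It ran from 0.130 to 0.441 with a median of 0.284 in laf6 and from 0.138 to 0.281 with a median of 0.167 in WT, and the groups overlapped widely. Its log2 difference was 0.46 ± 0.34 (SE, 95% interval -0.29 to 1.20, limma adjusted p = 0.379), and 0.03 with the values as deposited.

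**Figure D3:**
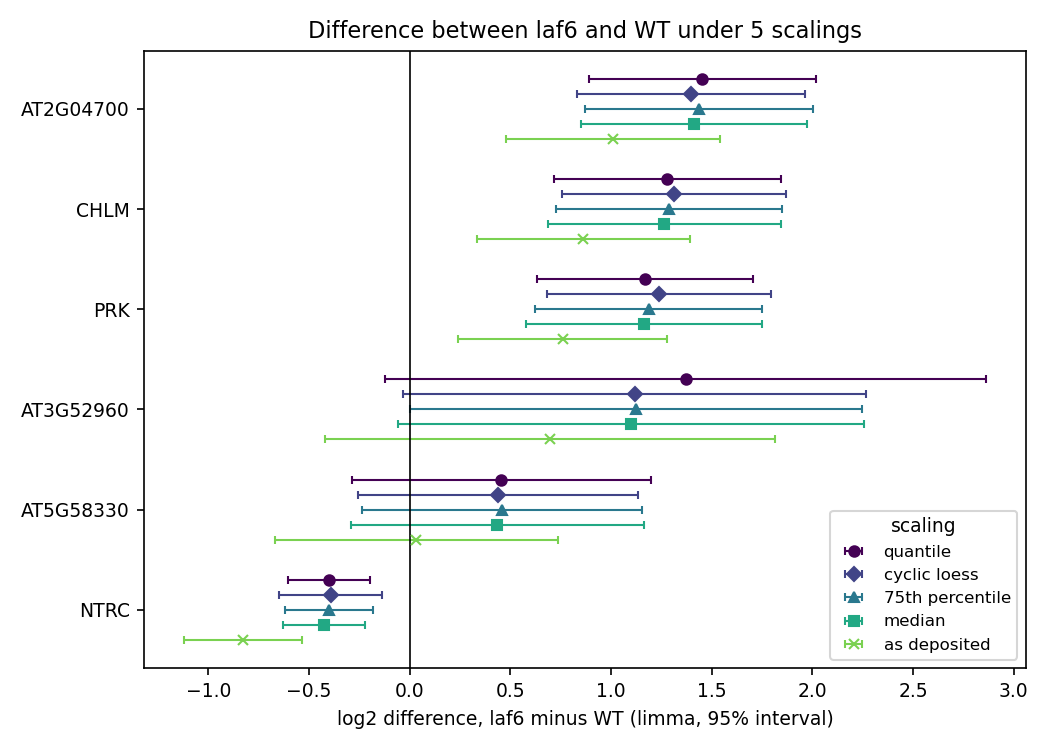
Log2 difference between laf6 and WT (horizontal axis, limma estimate with 95% interval) for 6 genes of the redox lists under 5 ways of scaling the arrays. AT2G04700, CHLM and PRK lie above 0 and NTRC below 0 under all 5, and the values as deposited lie 0.41 to 0.67 lower than the quantile-normalized ones.

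The log2 difference of each of these 6 genes was lower with the values as deposited than after quantile normalization, while 75th percentile and cyclic loess scaling moved some up and others down. The values as deposited shifted the median of all rows to -0.45 on the log2 scale, against -0.02 after quantile normalization. As deposited, the log2 difference of AT2G04700 was 1.01 (limma adjusted p = 0.00749) and that of PRK 0.76 (limma adjusted p = 0.0285), which for PRK is less than the normalized value by over 1.5 times. Under median, 75th percentile and cyclic loess scaling AT2G04700 stayed between 1.40 and 1.43 and PRK between 1.16 and 1.24, all past the threshold.

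A ratio of 2 features on 1 array does not depend on a scale factor of that array. The 3 pairs among AT2G04700, PRK and AT3G52960 were compared in this way on the deposited intensities. The log2 ratio of AT2G04700 to PRK was -2.04 ± 0.479 in laf6 and -2.29 ± 0.756 in WT (SD, n = 6 each). The difference of 0.25 was within the spread between arrays (95% interval -0.54 to 1.07, two-sided exact permutation p = 0.552, adjusted p = 0.883 over 3 pairs). The corresponding difference was 0.31 for AT2G04700 over AT3G52960 (95% interval -1.12 to 1.69) and 0.06 for PRK over AT3G52960 (95% interval -0.77 to 0.81), both with an exact permutation adjusted p of 0.883. These intervals do not show that the 3 transcripts changed alike. For AT2G04700 against PRK they leave room for an unequal change of up to 1.07 on the log2 scale.

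The ratios to NTRC were chosen after AT2G04700 and PRK had been seen to rise and NTRC to fall, so they are given as a description with no test. The log2 ratio of AT2G04700 to NTRC was 0.24 ± 0.563 in laf6 and -1.60 ± 0.577 in WT (SD, n = 6 each), higher on all 6 laf6 arrays than on any WT array. The difference was 1.84. The log2 ratio of PRK to NTRC was 2.28 ± 0.594 in laf6 and 0.69 ± 0.474 in WT, a difference of 1.59, and here too the groups did not overlap. Such a ratio needs no scale factor between arrays, but it shows only that its 2 genes changed unequally. Which gene rose and which fell is read from the single genes, whose values depend on the scaling between arrays. As deposited, NTRC itself was lower on all 6 laf6 arrays than on any WT array. The share of all features whose ratio to NTRC separates the groups was not computed. Nothing particular to AT2G04700 or PRK is therefore read from the separation.

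**Figure D4:**
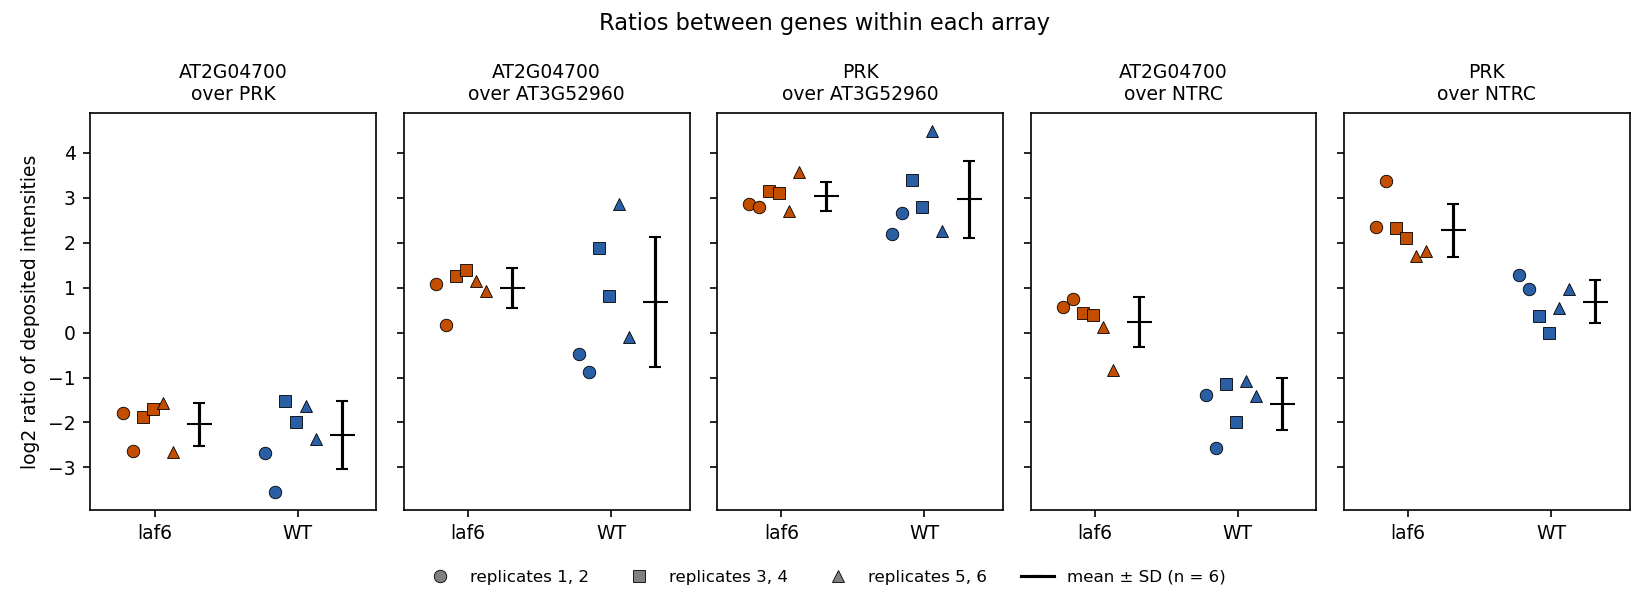
Log2 ratio of the deposited intensities of 2 genes on the same array (vertical axis) for 5 pairs of genes on the laf6 and WT arrays; point shapes mark replicate numbers and crosses with bars the mean and SD. The 3 pairs among AT2G04700, PRK and AT3G52960 overlap between the groups, and the 2 ratios to NTRC are higher on all laf6 arrays than on any WT array.

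Within the groups the values of PRK and AT3G52960 varied alike. Pearson's r of their log2 values was 0.74 over the 12 arrays and 0.65 after each group's mean had been subtracted. Both were highest in laf6 replicate 2, and in WT both were higher in replicates 1, 2 and 6 than in replicates 3, 4 and 5. AT2G04700 and PRK had an r of 0.74 over the 12 arrays but 0.06 after group means were subtracted, so their likeness was that of the groups. These correlations are descriptions over 12 arrays that were normalized together.

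The single-gene features most like each gene were taken from 533 features with a signal on at least 10 arrays, by Pearson's r over the 12 arrays. For AT2G04700 they were AT3G06870 (r = 0.93, and 0.75 after group means), AT5G38360 (0.90 and 0.48) and AT3G26630 (0.89 and 0.45). Their log2 differences were 1.01, 1.18 and 0.91. For PRK they were AT1G54500 (r = 0.95, and 0.85 after group means), AT3G47650 (0.91 and 0.79) and AT5G10910 (0.91 and 0.74), with log2 differences of 0.98, 1.72 and 0.92. All 6 of these genes passed the threshold in the same direction as the gene they resemble (limma adjusted p up to 0.00729), which their choice by likeness favours. For AT3G52960 they were AT3G27110 (r = 0.86, and 0.80 after group means), AT1G72020 (0.77 and 0.66) and PRK (0.74 and 0.65). AT3G27110 had a log2 difference of 1.55 ± 0.73 (SE) and, like AT3G52960, did not pass (limma adjusted p = 0.158). AT1G72020 passed, with a log2 difference of 0.56 ± 0.17 (SE, limma adjusted p = 0.0271).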

How the data were processed

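The deposited table gives 1 intensity per feature and array on a linear scale, from the 12 arrays. The highest value was 100 on every array, so the deposited values appear to be relative to the highest feature of their array. What scanner, background correction and scaling method the authors used for these intensities is not recorded in the labels or the table. Features were named through GEO's platform annotation, updated by Entrez identifier with RefSeq's table for assembly TAIR10.1 (690 of 692 single-gene features matched). The array's genome build is not stated, so no coordinates are given. Groups and replicate numbers come from the array titles. Quantile normalization, a floor at the 1st percentile of positive values, log2 conversion and the fit (lmFit and eBayes) used limma 3.58.1 in R 4.3.3. The 2 features of 1 gene were averaged, leaving 3438 rows. P-values are two-sided, with Benjamini-Hochberg adjustment over all rows and 0.05 as the threshold. Exact permutation tests used scipy 1.17.1, and their 95% intervals hold the shifts not refused by the test. The pipeline was run on simulated arrays with known changes, drawn independently and with the same distribution kept in both groups. The deposited laf6 arrays had lower medians, so that run does not show how well the scaling or the p-values hold here. The members and lists were chosen with earlier results of these data known. The text names all 4 genes, every list gene measured and the 3 most like features for each of the 4 with a signal on at least 10 arrays. Alternatives covered scaling, floor, dim features, adjustment, variance model, array weights, replicate numbers and each array left out.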

Additional observations from a re-analysis of the deposited data

Results flagged for a closer look

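Among 23 groups of 6 arrays checked, covering the log2 normalized values of 7 genes and 5 within-array ratios, 1 array lay far from the other 5. This was replicate 6 of laf6 for AT2G04700, at -2.55 on the log2 scale, where the gap to the next array made up 0.71 of the group's range. Chance alone sets about 1 in 20 such groups apart. Whether this array differs for a technical reason was not tested.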

How the results depend on the processing

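AT2G04700 kept its direction and its side of the threshold under all 26 alternatives (log2 difference 0.94 to 1.64, limma adjusted p 0.000282 to 0.0358), and PRK under 25 of 26 (0.76 to 1.27, adjusted p 0.000574 to 0.0695), missing it at 1.17 with adjacent replicate numbers averaged. AT3G52960 passed under none of 26 (0.55 to 1.68, adjusted p 0.112 to 0.331) and SBPASE under none of 25, the filter on dim features leaving it out. The count of rows past the threshold was 902 (428 higher and 474 lower in laf6). It was 545 with adjacent numbers averaged, 256 of them lower, and 172 (71 higher, 101 lower) when only single-gene rows were adjusted, where fewer rows are tested. As deposited 252 rows were higher and 902 lower. Leaving out 1 array gave 812 to 895.

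With 3 averaged samples per group the exact permutation test of ranks cannot go below 0.10, so the rank differences of 26.4 for AT2G04700 and 13.5 for PRK could not pass. With 1 array left out the rank difference of AT3G52960 ran from 8.15 to 15.1 percentile points. The differences in the log2 ratios, none of which passed, turned below 0 without replicates 1 and 2: -0.0796 for AT2G04700 over PRK, -0.18 for AT2G04700 over AT3G52960 and -0.10 for PRK over AT3G52960. With 1 array left out they ran from -0.0022 to 0.40 for AT2G04700 over PRK, from 0.00067 to 0.75 for AT2G04700 over AT3G52960 and from -0.0892 to 0.37 for PRK over AT3G52960. The causes were not tested.

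Deviations of same-numbered laf6 and WT arrays from their group means correlated at 0.14 to 0.21, and at 0.095 for replicate 3. By this narrow margin the numbers were not taken to pair the arrays, although all 6 laf6 arrays correlated best with the WT array of their own number. The main fit and rank tests therefore leave out any effect shared by a replicate number. With the replicate block 872 rows passed, and the block left the log2 differences of AT2G04700 at 1.45 (limma adjusted p = 0.0156) and PRK at 1.17 (limma adjusted p = 0.00680). Rank differences taken within each number gave an adjusted p of 0.0469 for AT2G04700 and PRK and 0.0938 for AT3G52960 (exact sign-flip permutation test). For AT2G04700 and PRK every laf6 array already ranked above every WT array. That separation fixes their p before adjustment at the smallest this test can give, so it adds no support.

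Each gene rests on 1 feature, and signal over background is not given. Dim features lie nearer the floor, and SBPASE lay at it on 10 of 12 arrays.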
